A study of Mus musculus with 6 samples.

Results

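Btg1, Btg2, Btg3, Tob1 and Tob2 encode antiproliferative proteins of the BTG and TOB family. These 5 genes, of 19323 named on the array, were followed through every probe set annotated to them, alone or together with another gene. That gave 13 of the 45032 probe sets analysed, 3 for Btg1, 2 for Btg2, 1 for Btg3, 2 for Tob1 and 5 for Tob2, and all 13 passed the filter on low values. The single Btg3 probe set is also annotated to Gm7334, so its signal cannot be assigned to Btg3 alone.

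RNA came from mouse bone marrow. Cells had been sorted for the transferrin receptor CD71 and the red cell antigen Ter-119, a pair of markers of nucleated erythroid precursors. Rb-null mice (3 arrays) had the genotype EpoR-GFPcre/+ with Rb fl/fl, and controls (3 arrays) had EpoR-GFPcre/+ with Rb fl/+. Both groups therefore carried the Cre recombinase at the erythropoietin receptor locus and at least 1 floxed Rb allele, and the controls kept an Rb allele without loxP sites. Strain, age, sex and whether marrow was pooled are not given in the sources used here, nor whether the arrays of a group stand for different animals. The p-values therefore reflect only the variation among these samples, some of which may be technical. By its title, the series asks how the retinoblastoma protein Rb links leaving the cell cycle with the making of mitochondria.

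Proteins of this family share an N-terminal BTG domain that binds the deadenylases Cnot7 and Cnot8, catalytic subunits of the CCR4-NOT complex, which shortens the poly(A) tail of mRNA. The TOB proteins also bind the poly(A)-binding protein Pabpc1, and Btg1 and Btg2 bind the arginine methyltransferase Prmt1. Forced expression of family members slows entry into S phase. Btg2 is a known target of p53 and an immediate early gene, while Btg1 is a known target of the FoxO3 transcription factor in erythroid cells and is abundant in resting lymphocytes.

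The median intensity lay between 23.3 and 31.2 on the 6 arrays. Arrays that share a replicate number resembled each other across probe sets, so differences are also given for pairs 1, 2 and 3. Both arrays numbered 3 stood apart, with 18S ribosomal RNA control probe sets averaging 1231 in the control and 542 in the Rb-null sample, while the other 4 arrays had 32.6 to 66.2. The bright Rb1 probe set read 1379 to 2760 in controls and 2897 to 4045 in Rb-null arrays. The sources used here do not give where it lies relative to the floxed exon or exons, so it is no check of the labels, on which all directions rest. Of 14 erythroid marker genes 9 had a probe set of their own, and their summed intensity was 38274 to 39958 in controls and 38571 to 45425 in Rb-null arrays. Of the 9, 5 had a higher mean in Rb-null cells (median log2 fold change 0.02), and Hba-a1 lay below the filter. Bright genes carry the sum, and Epor was uneven. For replicate numbers 1, 2 and 3 it read 2221, 266 and 609 in controls and 248, 2228 and 558 in Rb-null arrays.

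Promoter sequences of the 3 genes that lead the description are shown because Btg1 and Tob1 had the largest differences between the groups, and Btg2, the p53 target, is set beside them. All 5 family genes matched RefSeq promoters of 300 bases (250 before the start site and 50 after it, build GRCm38.p6). Capitals mark TTGTTTAC (a FoxO motif), TGACGTCA (the cyclic AMP response element), TATAAA and CCAAT, read on both strands, so CCAAT on the opposite strand appears as ATTGG. The Btg1 promoter is chr10:96616751-96617050 on the forward strand, that of Tob1 chr11:94211204-94211503 on the forward strand, and that of Btg2 chr1:134079106-134079405 on the reverse strand.
Btg1: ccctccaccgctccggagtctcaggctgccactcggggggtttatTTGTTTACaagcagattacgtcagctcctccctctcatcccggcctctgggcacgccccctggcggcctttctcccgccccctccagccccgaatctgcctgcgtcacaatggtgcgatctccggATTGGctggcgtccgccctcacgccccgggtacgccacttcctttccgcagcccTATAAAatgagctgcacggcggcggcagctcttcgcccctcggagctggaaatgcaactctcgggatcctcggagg
Tob1: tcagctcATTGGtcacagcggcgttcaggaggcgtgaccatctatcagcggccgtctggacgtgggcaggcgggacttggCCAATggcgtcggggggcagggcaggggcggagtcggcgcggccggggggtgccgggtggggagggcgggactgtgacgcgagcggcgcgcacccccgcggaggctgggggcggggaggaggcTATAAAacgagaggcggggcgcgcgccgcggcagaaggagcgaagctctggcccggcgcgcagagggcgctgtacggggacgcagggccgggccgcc
Btg2: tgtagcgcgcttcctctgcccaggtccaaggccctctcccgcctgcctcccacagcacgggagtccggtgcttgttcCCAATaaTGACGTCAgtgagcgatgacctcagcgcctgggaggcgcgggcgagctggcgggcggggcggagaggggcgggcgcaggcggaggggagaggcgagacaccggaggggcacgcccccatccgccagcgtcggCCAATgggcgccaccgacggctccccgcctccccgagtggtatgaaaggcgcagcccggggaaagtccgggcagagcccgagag

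The FoxO motif stood in the Btg1 promoter at position -205 from the start site, in none of the other family promoters, and in 1.23% of 32851 mouse promoters of the same length. The cyclic AMP response element stood in the Btg2 promoter at -166, alone in the family, and in 1.79% of all promoters. TATAAA, which is bound by the general transcription machinery, was found in Btg1 at -26 and in Tob1 at -47, and in 13.6% of all promoters. CCAAT was found in the promoters of Btg1, Btg2, Btg3 and Tob1, and in 37.4% of all. The E2F motifs TTTGGCGC, TTTCCCGC and TTTCGCGC, the CHR motif TTTGAA and the p53 decamer, which were in 0.514%, 1.07%, 0.323%, 17.9% and 8.36% of all promoters, had no match in the 6 family promoters (Btg3 has 2), which says only that these letters are not in these windows. TATAAA and CCAAT were added after the sequences were seen, and none of the matches overlapped another motif, save that TGACGTCA reads the same on both strands.

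Among the family, Btg1 and Tob1 had the largest differences between Rb-null and control cells, each higher in Rb-null. The steadiest Btg2 and Tob2 probe sets had log2 fold changes of 0.00 and -0.06, and the brightest ones 0.35 and -0.01. The brightest Btg2 probe set was higher in Rb-null cells in each pair, with overlapping groups. On the Btg1 probe set whose groups did not overlap, Rb-null signal was 1.95-fold the control signal, and on the bright Tob1 probe set 2.73-fold. The brightest Btg1 probe set had a smaller log2 fold change of 0.68, and its groups overlapped, as did those of the bright Tob1 probe set. Of the 13 probe sets 11 had a log2 fold change above 0, where 48.4% of the 27019 probe sets tested did. Higher values in each of the 3 pairs were found for 7 (20.3% of all probe sets) and lower values in each pair for 0 (22.0% of all). The 13 probe sets stand for 5 genes and are not independent of each other, and their median log2 fold change was 0.35 against -0.01 over all probe sets.

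None of the 13 passed limma's moderated test at adjusted p under 0.05, and neither did any of the 27019 probe sets (0%; lowest adjusted p = 0.265, with 1119 at an unadjusted p under 0.05). At unadjusted p under 0.05 limma placed 2 of the 13 higher, the bright Tob1 probe set and 1 of Btg1, where 2.80% of all probe sets were. With the replicate number as a block 0 passed again (0% of all, lowest adjusted p = 0.0999), and 3 of the 13 were higher at unadjusted p under 0.05 (8.72% of all). When a variance trend and robust moderation were added to the block, 3 of the 13 rose at adjusted p under 0.05, 2 of Btg1 and 1 of Tob1, where 2.24% of all probe sets rose.

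**Figure D1:**
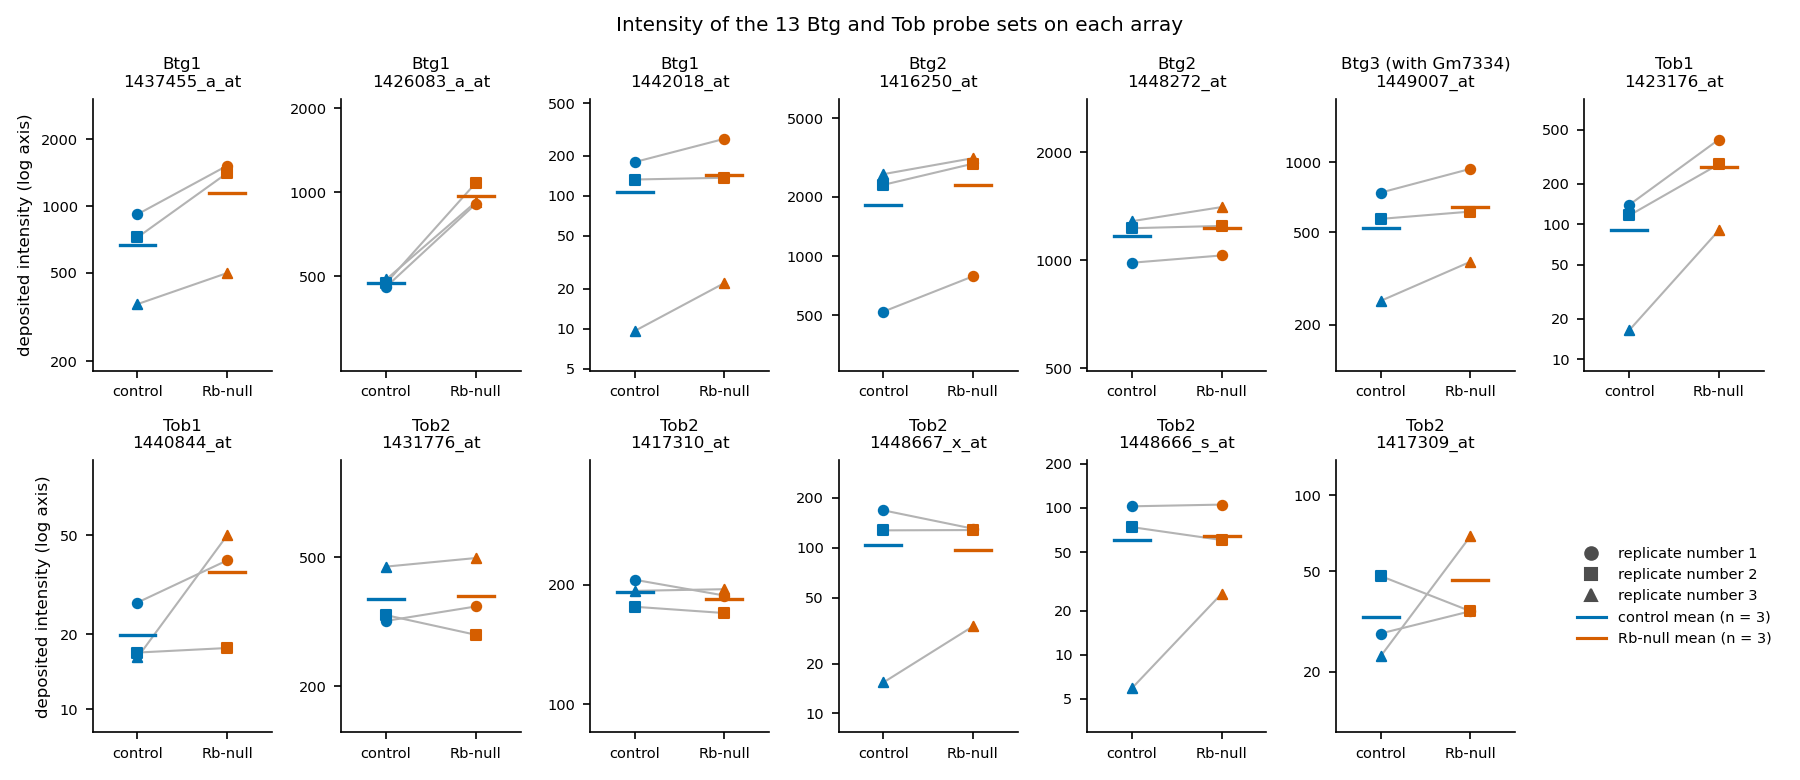
Deposited intensity (vertical, log axis, each panel on its own range) of the 13 probe sets on the 3 control and 3 Rb-null arrays, with symbols for the replicate number, grey lines joining arrays of the same number and bars for group means. Btg1 1426083_a_at is the only panel whose groups do not overlap, 459 to 488 in controls and 909 to 1082 in Rb-null arrays.

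Btg1 was read by 3 probe sets, which all gave higher values in Rb-null cells in each pair but differed in how they varied among arrays. The probe set 1426083_a_at read 459 (control 1), 474 (control 2) and 488 (control 3). In the Rb-null arrays of the same numbers it read 909, 1082 and 924. All Rb-null arrays were thus above all controls, as for 5.73% of all probe sets. Control signal averaged 473 ± 14.4 (SD, n = 3) and Rb-null signal 972 ± 95.6 (SD, n = 3). The log2 fold change was 0.96 (SE 0.26, 95% interval 0.37 to 1.55). This difference did not pass limma's test (adjusted p = 0.663; with the block adjusted p = 0.103), and with the block, variance trend and robust moderation it did (limma adjusted p = 0.0217). By p it stood at rank 207 among the 27019 probe sets, and when any 1 array was left out its log2 fold change stayed between 0.87 and 1.07.

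The brightest Btg1 probe set, 1437455_a_at, had control values of 919, 724 and 362 in the order of the replicate numbers. The Rb-null values were 1522, 1410 and 499.8. Signal was lowest on both arrays numbered 3, so the groups overlapped although each Rb-null array was above its partner, by 0.63, 0.95 and 0.45 on the log2 scale. The log2 fold change was 0.68 (SE 0.44, 95% interval -0.32 to 1.67; limma adjusted p = 1.00), and it passed only with the block, variance trend and robust moderation (limma adjusted p = 0.0480).

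The third Btg1 probe set, 1442018_at, was dim on both arrays numbered 3, at 9.59 (control) and 22.04 (Rb-null), and read 180 and 133 on the other controls and 269 and 137 on the other Rb-null arrays. Its log2 fold change was 0.37 (SE 0.84; limma adjusted p = 1.00), with pair differences of 0.52, 0.02 and 0.55, and the sign turned without control replicate 3 (-0.48) and likewise without Rb-null replicate 1 (-0.25). Those fits had no block and kept the partner of the array left out. Without both arrays numbered 3 the log2 fold change of 1442018_at was 0.28. The Btg1 probe sets therefore shared the direction in each pair, but not the level of pair 3. Across the 6 arrays the brightest one correlated with 1442018_at at r = 0.88 and with 1426083_a_at at r = 0.36, over arrays that share replicate numbers.

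Tob1, which binds both the deadenylase and the poly(A)-binding protein, had the largest difference of the family. Its brighter probe set, 1423176_at, called bright only beside the other, read 139 (control 1), 116 (control 2) and 16.4 (control 3). Rb-null values for the same numbers were 424, 278 and 90.1. Each Rb-null array was above its partner, 3.05-fold, 2.40-fold and 5.50-fold in deposited intensity, but Rb-null array 3 lay below control arrays 1 and 2, so the groups overlapped. The control value of pair 3 lay below 18.9, the intensity that the filter on mean signal used, so the fold of that pair is uncertain.

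On the log2(intensity + 16) scale the Tob1 change was 1.45 (SE 0.62, 95% interval 0.04 to 2.86; limma adjusted p = 1.00). With the replicate block its interval was 0.99 to 1.91 (limma adjusted p = 0.0999, the lowest value, which it shared with others, as it stood at rank 67 by p), and it passed with the variance trend and robust moderation added (limma adjusted p = 0.0215). Without both arrays numbered 3 the log2 fold change was 1.30. It ran from 0.81 without control replicate 3 to 1.94 without Rb-null replicate 3. An offset of 64 in place of 16 gave 1.04, and an offset of 1 gave 1.72.

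The second Tob1 probe set, 1440844_at, was dim on every array, with controls at 26.8, 16.9 and 16.1 and Rb-null values of 39.6, 17.6 and 49.8 for replicate numbers 1, 2 and 3. Its log2 fold change was 0.51 (SE 0.34; limma adjusted p = 1.00), with pair 2 differing by only 0.04, and it was 0.81 without Rb-null replicate 2 and 0.24 without Rb-null replicate 3. In each pair it differed less than the bright probe set, by 1.06, 1.06 and 0.70 on the log2 scale, a difference that was not tested.

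**Figure D2:**
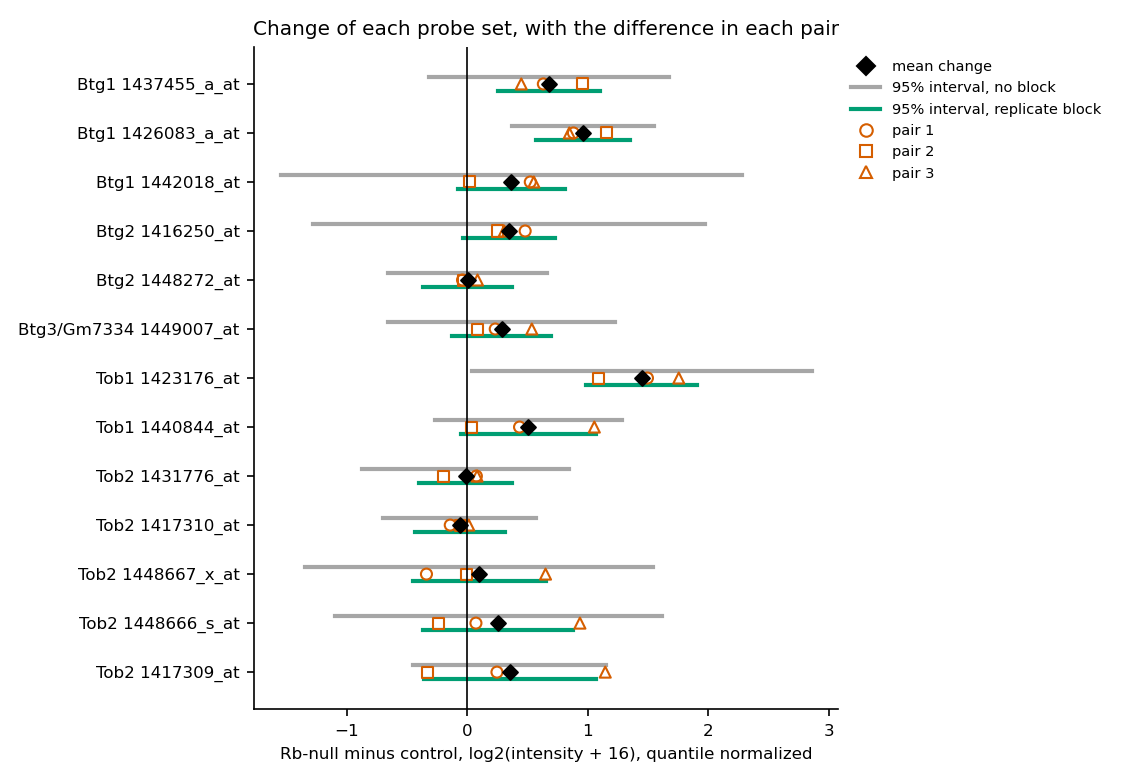
Rb-null minus control on the log2(intensity + 16) scale (horizontal) for the 13 probe sets, with the mean change (diamond), the difference in pairs 1, 2 and 3 (open symbols) and the 95% interval of limma without (grey) and with (green) the replicate block. Without the block the interval clears 0 for Btg1 1426083_a_at and Tob1 1423176_at, and with it also for Btg1 1437455_a_at (0.26 to 1.10); the intervals are not adjusted for the number of probe sets.

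Btg2, the p53 and immediate early target of the family, was read by a pair of bright probe sets. On 1416250_at the controls read 522, 2300 and 2607 on arrays 1, 2 and 3. The Rb-null arrays read 789, 2946 and 3143. Both arrays numbered 1 were far below the rest, so the groups overlapped widely. Each Rb-null array was above its partner, by 0.48, 0.25 and 0.31 on the log2 scale, and the mean log2 fold change was 0.35 (SE 0.71; limma adjusted p = 1.00, with the block adjusted p = 0.332). Its sign turned without control replicate 1 (-0.37) and likewise without Rb-null replicate 3 (-0.06). These fits had no block and kept the partner of the array left out. Without both arrays numbered 3 the log2 fold change was 0.36.

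On the other Btg2 probe set, 1448272_at, the controls read 984, 1228 and 1285 and the Rb-null arrays 1031, 1246 and 1406. After normalization its pairs differed by -0.04, -0.03 and 0.09, and the log2 fold change was 0.00 (SE 0.29; limma adjusted p = 1.00). With the block the 95% interval was -0.37 to 0.38. Both Btg2 probe sets were annotated to Btg2 alone and were low on the arrays numbered 1. The spread among controls was wider on 1416250_at, with a log2 SD of 1.25 against 0.25 for 1448272_at.

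The probe set shared by Btg3 and Gm7334, 1449007_at, had control values of 739, 569.8 and 253 for replicate numbers 1, 2 and 3. The Rb-null values were 935, 612 and 372. Each Rb-null array was above its partner, but the differences between replicate numbers were larger than those between the groups, which overlapped. The log2 fold change was 0.29 (SE 0.41, limma adjusted p = 1.00). It was -0.06 without control replicate 3 and -0.00 without Rb-null replicate 1, in fits with no block that kept the partner array. Without both arrays numbered 3 it was 0.16.

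Tob2, the second TOB protein, had 5 probe sets, and in 0 of them did all pairs differ in the same direction. The brightest, 1431776_at, had control values of 318, 331 and 467 for replicate numbers 1, 2 and 3, and Rb-null values of 352, 288 and 496. Its log2 fold change was -0.01 (SE 0.38; limma adjusted p = 1.00), with a 95% interval of -0.40 to 0.38 under the block. The second, 1417310_at, was the steadiest probe set of the gene, at 206, 176 and 193 in controls and 188, 169.9 and 195 in Rb-null arrays. Its log2 fold change was -0.06 (SE 0.28; limma adjusted p = 1.00).

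Of the other Tob2 probe sets, 1448666_s_at and 1448667_x_at were dim on control array 3, at 5.92 and 15.4, and read 26.04 and 33.5 on Rb-null array 3. On the other 4 arrays they read 60.5 to 105 and 127 to 168. Their log2 fold changes were 0.26 (SE 0.59) and 0.10 (SE 0.63). The positive sign rested on pair 3, as they were -0.08 and -0.17 without both arrays numbered 3. Without control replicate 3 alone they were -0.42 and -0.62, in fits with no block that kept the partner array. The dimmest, 1417309_at, read 23.1 to 48.0 in controls and 34.8 to 68.8 in Rb-null arrays, and had 0.36 (SE 0.35), or 0.03 without Rb-null replicate 3. None of these 3 passed (limma adjusted p = 1.00 for each). Across the 6 arrays 1448666_s_at and 1448667_x_at ran against the brightest one (r = -0.76 and -0.89), so the Tob2 probe sets disagree on which replicate number is low.

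Btg4, the family member known from oocytes and outside the 5 genes, read 30.7 to 63.8 in controls and 27.5 to 60.02 in Rb-null arrays (log2 fold change 0.02, SE 0.39; limma adjusted p = 1.00).

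For 10 of the 13 probe sets over 50% of the spread lay between replicate numbers. Over all probe sets past the filter the replicate number held a median of 69.0% of the sum of squares over the 6 arrays, and genotype 9.88%. Most probe sets on the array therefore passed that 50% mark too. Btg1 1426083_a_at stood at the other end, with 5.69% for replicate number and 92.4% for genotype. The bright Tob1 probe set had 55.04% and 43.4%, and Btg1 1437455_a_at had 68.1% and 29.1%. For both Btg2 probe sets and the brightest Tob2 probe set, replicate number held 96.7% to 98.5% and genotype at most 3.07%. The array numbered 3 was the lowest of its group in both groups for 6 of the 13 probe sets (29.7% of all) and the highest in both for 5 (26.7% of all). The part of the 18S signal and of RNA quality in these differences was not tested.

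**Figure D3:**
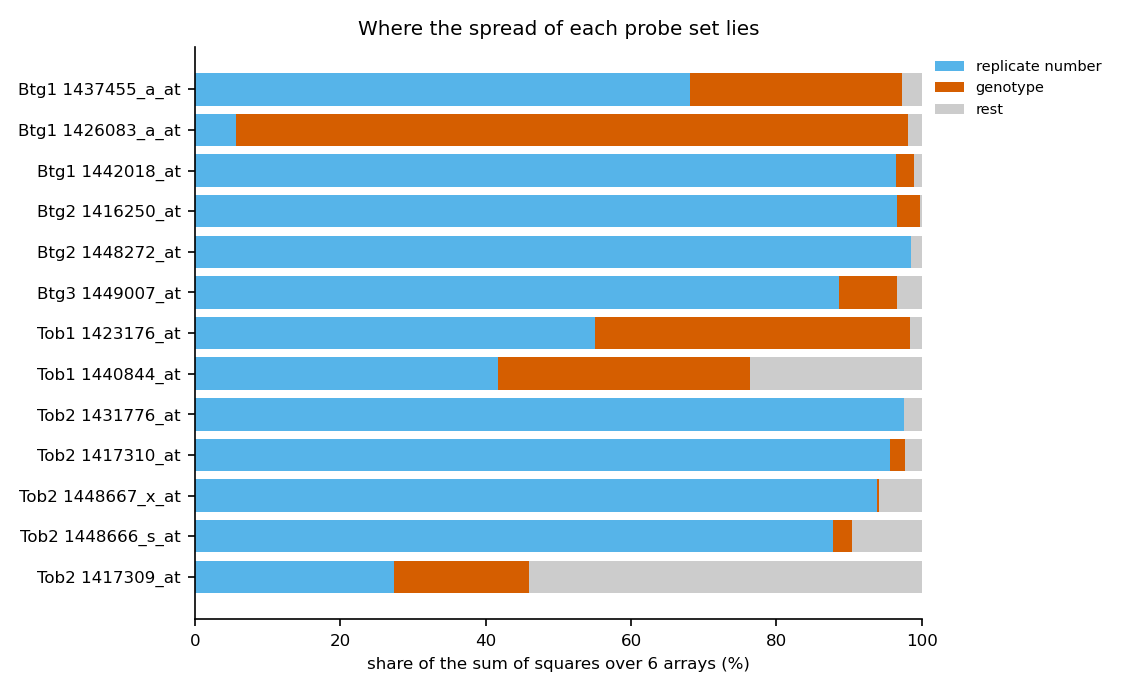
Share of each probe set's sum of squares over the 6 arrays (horizontal, %) that lies between replicate numbers (blue), between genotypes (orange) and in the rest (grey). Genotype holds 92.4% for Btg1 1426083_a_at and 43.4% for the bright Tob1 probe set.

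Markers of other marrow cells were read beside these genes, since Btg1 and Btg2 are abundant in lymphocytes. Summed intensity of the B cell markers (10 of 11 genes on the array by a probe set of their own) was 603 to 931 in controls and 387 to 595 in Rb-null arrays. The sum was lower in the Rb-null array of every pair, while 3 of the 10 genes (Pax5, Ebf1 and Cd22) had a higher mean in Rb-null cells, and the median log2 fold change was -0.12. The defining B cell gene Cd79a read between 45.2 and 307 on the 6 arrays, and Pax5 31.5 to 41.1. T and NK cell markers (9 of 11) summed to 497 to 1036 and 516 to 899.8, and 4 of the 9 had a higher mean in Rb-null cells (median log2 fold change -0.06). Genes of the T cell receptor complex ran from Cd3e, which read 6.26 to 30.4, and Cd3g, at 10.8 to 42.8, to Cd3d, at 32.9 to 117, and Cd247, at 0.42 to 493, while the coreceptor gene Cd8a read 112 to 242. The part of lymphocytes in the Btg1 and Btg2 values was not tested. Granulocyte markers (14 of 16) summed to 38530 to 58330 in controls and 28256 to 57586 in Rb-null arrays, and 0 of the 14 had a higher mean in Rb-null cells (median log2 fold change -0.53). With their mean level as a covariate limma called 0 of all 27019 probe sets, and so 0 of the 13. The log2 fold changes were then 0.97 for Btg1 1426083_a_at, 0.59 for Btg1 1437455_a_at and 1.28 for the bright Tob1 probe set. The covariate moved others by more than 1.5 times, Btg2 1416250_at from 0.35 to 1.05, the Btg3 and Gm7334 probe set from 0.29 to 0.04, Btg1 1442018_at from 0.37 to 0.12 and Tob1 1440844_at from 0.51 to 0.24. Of Tob2, 1431776_at went from -0.01 to -0.16, 1417310_at from -0.06 to -0.17, 1448666_s_at from 0.26 to 0.04, 1448667_x_at from 0.10 to 0.05 and 1417309_at from 0.36 to 0.38, and Btg2 1448272_at had 0.04 in place of 0.00. Macrophage markers (11 of 11) summed to 1770 to 3218 and 1422 to 1925, and 1 of the 11 had a higher mean in Rb-null cells (median log2 fold change -0.33). Megakaryocyte markers (7 of 9) summed to 353 to 627 and 352 to 451, with 1 of the 7 higher (median -0.24). Markers of mast cells, basophils and eosinophils (8 of 9) summed to 299 to 1472 and 205 to 1254, with 3 of the 8 higher (median -0.20). In bulk samples fewer cells of a type and less RNA per cell cannot be told apart.

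The partners of the family in the CCR4-NOT complex and in deadenylation had log2 fold changes between -0.42 and 0.60. With 1 probe set per gene, 18 of 19 listed genes were measured, and their median log2 fold change was 0.08 (10 above 0, where 45.4% of all genes were), against -0.04 over 13232 genes. None passed limma's test (0% of all 13232 genes), and 0 stood at an unadjusted p under 0.05, where 4.06% of all genes did. With the replicate block 1 was higher at an unadjusted p under 0.05, where 8.72% of all probe sets were. In that fit 1 was lower (share over all not counted), and 0 were called. In each of the 3 pairs 6 were higher (18.4% of all genes) and 2 lower (24.1% of all genes). Without control replicate 3 the median was -0.14, without Rb-null replicate 1 -0.04, without Rb-null replicate 2 -0.10 and without Rb-null replicate 3 0.23.

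Cnot7, the deadenylase that BTG and TOB proteins bind, had control values of 165, 226 and 27.2 and Rb-null values of 170.4, 240.0 and 42.0. Its close relative Cnot8 had 125, 153 and 51.6 in controls against 87.9, 131 and 75.5. Their log2 fold changes were 0.17 (SE 0.65) and -0.05 (SE 0.33). Pabpc1 was bright and even, with a control mean of 8498 ± 178 (SD, n = 3) and an Rb-null mean of 8193 ± 535 (SD, n = 3). Prmt1, the methyltransferase partner of Btg1 and Btg2, had -0.19 (SE 0.65), with pair differences of 1.06, -0.18 and -1.46. By p the first 4 genes of the list were the ubiquitin ligase subunit Cnot4 at 0.60 (SE 0.43), the scaffold subunit Cnot2 at 0.32 (SE 0.26) and the deadenylase subunits Pan2 at -0.42 (SE 0.36) and Pan3 at 0.24 (SE 0.27), each with limma adjusted p = 1.00. Other Cnot2 probe sets ranged from -0.75 to 0.06.

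Genes of mRNA decapping and decay downstream of deadenylation had a median of 0.02 over 13 genes. Of these, 8 were above 0 (45.4% of all genes) and 0 were called (0% of all genes). With the replicate block 2 of the 13 were higher at an unadjusted p under 0.05, where 8.72% of all probe sets were. In that fit 3 were lower (share over all not counted), and 0 were called. Lsm1 had 0.46 (SE 0.27), the helicase Ddx6 -0.46 (SE 0.31), the exonuclease Xrn1 0.53 (SE 0.37) and Zfp36, which recruits CCR4-NOT to AU-rich mRNA, -0.52 (SE 0.39). Other probe sets of Xrn1 and Ddx6 did not share these values, at -0.15 for Xrn1 and between -0.10 and 0.08 for Ddx6.

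Genes of the p53, FoxO and immediate early responses were read in 3 lists. Trp53, which encodes p53, had no probe set of its own and was not measured. The p53 feedback and arrest genes had a median of 0.97 over 11 measured genes of 15 (10 above 0, where 45.4% of all genes were). At an unadjusted p under 0.05 limma placed 7 of the 11 higher, where 2.55% of all genes were, and called 0. With the replicate block 7 of the 11 were again higher, where 8.72% of all probe sets were, and 0 were called. The list was chosen with earlier results of these data known, so these counts are no independent support. By p its first 4 genes were Ddit4, Trp53inp1, Ccng1 and Phlda3. Beside this list, Btg2 had 0.35 and 0.00 on its 2 probe sets. FoxO factors and targets had a median of -0.10 over 15 genes, 6 of them above 0 (45.4% of all genes). At an unadjusted p under 0.05 limma placed 2 of the 15 higher (2.55% of all genes) and 1 lower (1.51% of all genes), and it called 0. With the replicate block 2 of the 15 were higher (8.72% of all probe sets) and 2 lower (share over all not counted), and 0 were called. The insulin receptor adaptor Irs2 had 1.86 (SE 0.27) and Sod2, the mitochondrial superoxide dismutase, 0.92 (SE 0.29), while catalase, Cat, had -1.36 (SE 0.39) and the transcription factor Klf2 -0.74 (SE 0.43). Other Sod2 probe sets ranged from 0.07 to 0.99.

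Immediate early genes had a median of 0.12 over 14 genes, 9 above 0 (45.4% of all genes). Of the 14, 0 stood at an unadjusted p under 0.05 (4.06% of all genes), and limma called 0 (0% of all genes). With the replicate block 4 of the 14 were higher at an unadjusted p under 0.05, where 8.72% of all probe sets were. In that fit 2 were lower (share over all not counted), and 0 were called. The orphan receptor Nr4a1 had -0.54 (SE 0.25), Ier2 0.63 (SE 0.35), the AP-1 subunit Jund 0.45 (SE 0.25) and Ier3 0.67 (SE 0.42). The other Jund probe set had 1.13. None of these related genes passed limma's test over all genes.

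**Figure D4:**
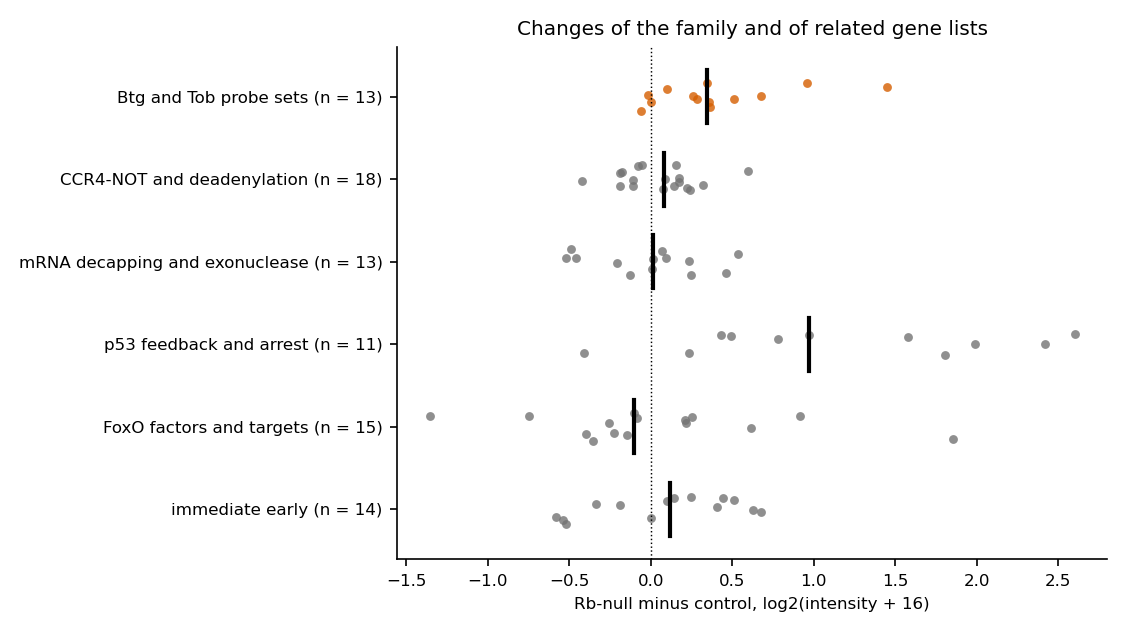
Rb-null minus control on the log2(intensity + 16) scale (horizontal) for the 13 Btg and Tob probe sets (orange) and for the genes of 5 related lists (grey, 1 probe set per gene), with a black bar at each median; vertical scatter within a row has no meaning. The medians are 0.35 for the family, 0.08 for CCR4-NOT and deadenylation and 0.97 for p53 feedback and arrest.

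The genes whose pattern over the 6 arrays was most like that of each family gene were found by Pearson correlation of normalized log2 values among 13228 other genes, as a description only, since arrays of the same number share much of their signal. For the brightest Btg1 probe set they were Ap3s1 (r = 0.997), Foxj3 (0.985) and Phip (0.981). For the bright Tob1 probe set they were Vkorc1l1 (r = 0.999), Stil (0.999) and Ankrd17 (0.998), which had log2 fold changes of 0.92, 0.84 and 0.75. Btg2 1416250_at was most like Rnf123, Map3k11 and Rab2a (r = 0.992 to 0.995). The Btg3 and Gm7334 probe set was most like 2410012E07Rik, Ldb3 and Mep1a (r = 0.996 to 0.999), and the brightest Tob2 probe set most like Ino80dos, 4921504E06Rik and Tmod2 (r = 0.997 to 0.999).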

How the data were processed

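RNA was biotin-labelled, per the labels' protocols, and read on 6 one-colour Affymetrix arrays. The authors deposited 1 linear intensity for each probe set, and the sources used here do not give how it was summarised and scaled. Of 45101 probe sets, 64 controls, 4 empty ones and 1 with a value above 65535 were left out. Values were taken as log2(intensity + 16), so fold changes of dim probe sets are understated, and quantile normalized, since array medians differed by up to 0.264. Only probe sets whose mean exceeded the 40th percentile (log2 5.12) were tested. Names come from GEO's platform annotation, updated by Entrez ID: 34941 probe sets carry 1 symbol, 932 several and 9159 none.

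Rb-null was compared with control by limma 3.58.1 in R 4.3.3, 2-sided, with Benjamini-Hochberg adjustment over all 27019 probe sets (13232 genes for lists, by the probe set with the highest mean). Exact permutation of 3 against 3 arrays cannot go below p = 0.1, and precision is limited by how few arrays there are. Replicate numbers come from the titles. Arrays of the same number had correlated deviations from their group means (0.639, 0.621 and 0.667; at most 0.0719 otherwise), so a fit with the number as a block was also made. The rule named every family probe set, up to 4 genes by p from each list and the 3 most alike genes. Members and lists were chosen with earlier results of these data known. Alternatives covered offset, scaling, filter, moderation, weights, block, a granulocyte covariate and left-out arrays.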

Additional observations from a re-analysis of the deposited data

How the results depend on the processing

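Under 19 alternatives the bright Tob1 probe set and Btg1 1437455_a_at stayed higher in Rb-null cells, as did Btg1 1426083_a_at under the 18 that could be run on it. Those that changed the filter, the moderation or the block, or kept 1 probe set per gene, could not change a log2 fold change. Only the remaining alternatives therefore bear on direction. The calls were changed by a single one, the replicate block with variance trend and robust moderation, which called 938 probe sets (605 higher and 333 lower), 3 of them of the family, Btg1 at 0.68 and 0.96 and Tob1 at 1.45. The replicate block alone left each log2 fold change as it was and changed no call (Tob1 1.45). Fits with 1 array left out had no block and kept the partner of that array, so differences between replicate numbers enter their values. With 1 array left out, the ranges were 0.38 to 1.07 for Btg1 1437455_a_at, 0.87 to 1.07 for Btg1 1426083_a_at, 0.81 to 1.94 for Tob1, -0.37 to 1.01 for Btg2 1416250_at, -0.058 to 0.61 for the Btg3 and Gm7334 probe set and -0.33 to 0.25 for Tob2 1431776_at. They were -0.48 to 1.12 for Btg1 1442018_at, -0.18 to 0.15 for Btg2 1448272_at, -0.20 to 0.063 for Tob2 1417310_at, -0.62 to 0.57 for Tob2 1448667_x_at, -0.42 to 0.69 for Tob2 1448666_s_at, 0.24 to 0.81 for Tob1 1440844_at and 0.030 to 0.53 for Tob2 1417309_at. The median of the CCR4-NOT list ran from -0.14 to 0.23. Signs also turned for Tob2 1431776_at with the deposited scaling (0.011) and with arrays shifted to a common median (0.012), and with array weights for Btg2 1448272_at (-0.031) and Tob2 1448667_x_at (-0.081). Without both arrays numbered 3 they turned for Btg2 1448272_at (-0.036) and for Tob2 1448667_x_at (-0.17), 1448666_s_at (-0.081) and 1417309_at (-0.042). The cause was not tested. Dim signal limits Btg1 1442018_at, Tob1 1440844_at and Tob2 1417309_at. It also limits Tob1 1423176_at, Tob2 1448666_s_at and Tob2 1448667_x_at, which read 16.4, 5.92 and 15.4 on control array 3. The shared probe set of Btg3 was not tested where 1 probe set stood for each gene.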
